A study of Homo sapiens with 4 samples.

Results

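ZBTB genes code for transcription factors that join a BTB domain, also called POZ, at the amino end to C2H2 zinc fingers at the carboxyl end. The fingers bind DNA. The BTB domain lets the proteins pair with one another and recruits corepressors, so that many members are repressors that fix a cell's lineage, above all in blood and lymphocytes, while others bind methylated DNA or telomeres. SIRT7, the protein pulled down, is a sirtuin enzyme found mainly in the nucleolus.

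The members were the genes of the deposited table whose symbol was ZBTB, a number and, where present, letters. This found 42 of the 23615 genes in the table, and all 42 passed the filter on low counts, as did 14555 genes in all. One of them, ZBTB8OS, matches by name only: it lies on the opposite strand beside ZBTB8A and codes for archease, a cofactor of the tRNA ligase complex, not for a BTB protein. Proteins of the BTB zinc finger family that carry other names (8 genes, among them BCL6 and HIC1) were kept apart as a context list.

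All 4 libraries came from HEK293T, an embryonic kidney line, that stably overexpressed SIRT7 with a Flag tag. The 2 input libraries held total cellular RNA, and the 2 RIP libraries held RNA recovered with an anti-Flag gel by RNA immunoprecipitation (RIP) and freed with proteinase K. Ribosomal RNA was depleted in both. The labels do not say whether the line is a clone, nor whether replicates are separate cultures, so p-values measure the spread between these libraries, which may be technical. A mock pull-down from untagged cells was not analysed here, so RNA held by the gel alone is not told apart from RNA held through SIRT7. Each library is bulk RNA, in which fewer cells with a transcript and less of it per cell cannot be told apart.

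The libraries held 17310753 to 18131602 fragments on genes in input and 25655455 to 25998032 in RIP. SIRT7 mRNA, from the transgene and the endogenous gene together, was 37.4-fold higher in RIP. All 8 markers fixed for HEK293T were tested, with sums of 315 to 347 FPKM in input and 507 to 512 FPKM in RIP (FPKM, fragments per kilobase of transcript scaled to sequencing depth), although the kidney marker PAX2 stayed at 0.08 to 0.154 FPKM. VIM made up most of these sums (211.0 and 240.4 FPKM in input, 366.5 and 375.5 FPKM in RIP). In FPKM, VIM, KRT8 and KRT18 were higher in RIP and LIN28B was lower (23.16 and 23.65 against 8.254 and 9.358). Of 10 markers of blood, liver, fibroblast and muscle 3 were tested, and the 10 summed to 2.65 and 2.95 FPKM in input and 3.22 and 4.12 FPKM in RIP, with CD3E and HBB at 0 in every library. Their part in the results was not tested.

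Promoter windows from RefSeq (GRCh38.p14) matched 36 of the 42 members by symbol and not ZBTB6, ZBTB10, ZBTB16, ZBTB17, ZBTB40 or ZBTB41. The pull-down measured RNA, not promoters, so these windows only describe the genes. The 4 shown stand for the ends of the range, the members with the largest rise (ZBTB46 and ZBTB42) and the largest fall (ZBTB37 and ZBTB44) among those with 1 listed start. Each is the 150 bases before the start, 5′ to 3′ on the gene's strand, with every CpG in capitals (the motif CG, which reads the same on both strands).
ZBTB46, chr20:63831265-63831414, minus strand: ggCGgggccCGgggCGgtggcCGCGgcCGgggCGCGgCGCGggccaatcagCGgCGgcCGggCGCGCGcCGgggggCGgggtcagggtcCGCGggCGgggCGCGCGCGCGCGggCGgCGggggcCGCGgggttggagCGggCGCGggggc
ZBTB42, chr14:104800951-104801100, plus strand: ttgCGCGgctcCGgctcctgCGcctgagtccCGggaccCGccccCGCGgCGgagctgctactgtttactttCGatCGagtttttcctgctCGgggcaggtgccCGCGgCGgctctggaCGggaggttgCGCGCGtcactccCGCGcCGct
ZBTB37, chr1:173868230-173868379, plus strand: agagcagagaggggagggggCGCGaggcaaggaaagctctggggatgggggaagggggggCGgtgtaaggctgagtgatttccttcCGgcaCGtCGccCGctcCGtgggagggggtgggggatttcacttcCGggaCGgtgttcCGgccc
ZBTB44, chr11:130314918-130315067, minus strand: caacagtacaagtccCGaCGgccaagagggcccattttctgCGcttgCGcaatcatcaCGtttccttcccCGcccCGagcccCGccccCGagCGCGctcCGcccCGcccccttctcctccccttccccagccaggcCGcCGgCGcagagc
They held 34, 22, 11 and 16 CpG, in the order shown. Of 35116 such windows 89.1% held a CpG, and the median held 7. The window of ZBTB46 had more CpG than 99.9% of all windows. GC content was taken over the whole window of 300 bases and averaged over a gene's listed starts (8 for ZBTB20, 1 for ZBTB46). The members ran from 43.8% GC (ZBTB20) through a median of 65.5% to 89.7% (ZBTB46). The median for tested genes with an entry was close to that of the members, at 64.7%. Across the 36 members GC content went with the fold change weakly (Spearman rho = 0.20, Pearson r = 0.28, across genes of the same 4 libraries), and so it did across 10398 tested genes (0.13 and 0.18). With the length-corrected fold change, given further on, these were 0.25 and 0.34 for the members and 0.21 and 0.27 for the tested genes.

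ZBTB mRNAs were, for the most part, poorer in the SIRT7 pull-down than in total RNA. Their summed share of all fragments was 0.167% and 0.157% in the input libraries and 0.0666% and 0.0674% in the RIP libraries. Of the 42 members 27 were lower in RIP and 13 higher, and ZBTB3 and ZBTB32 passed the test in neither direction (edgeR's quasi-likelihood test, Benjamini-Hochberg adjustment over all tested genes, threshold 0.05). Of all tested genes 39.7% were called lower and 38.0% higher, against 64.3% and 31.0% of the members. The median log2 fold change was -0.66 over the members and -0.03 over all tested genes. At least 2-fold changes were found for 14 members lower and 4 higher, where 19.1% and 17.5% of tested genes passed that mark. The input and RIP libraries did not overlap for 40 of the 42 members, and for 89.2% of all tested genes. The RIP direction rests on TMM factors, which centre the bulk of genes. With plain library totals in their place the median over all tested genes moved to -0.76 and that of the members to -1.39. The calls became 36 lower and 4 higher, against 65.5% and 17.0% of tested genes. All 27 members called lower stayed lower. Of the 13 called higher 4 stayed higher, 7 were called lower, and ZBTB8OS and ZBTB16 had no call.

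**Figure D1:**
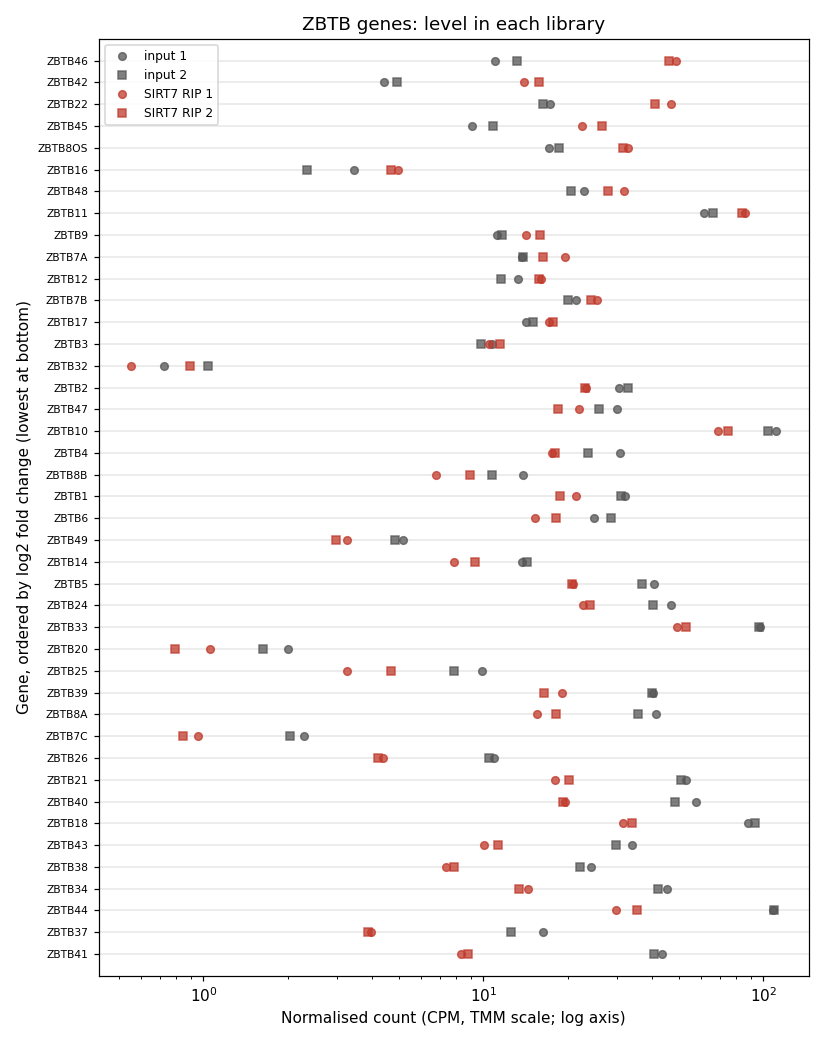
Normalised counts (CPM on the TMM scale, log axis) of the 42 ZBTB genes in the 2 input (grey) and 2 SIRT7 RIP (red) libraries, 1 row per gene, ordered by log2 fold change; circles are replicate 1 and squares replicate 2. The RIP points lie left of the input points for the 27 lower genes and right of them for the 13 higher genes (4 with library totals), and the groups overlap for ZBTB3 and ZBTB32.

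Members that rose more than 2-fold were ZBTB46, ZBTB42, ZBTB22 and ZBTB45, and these are the 4 that stayed higher with library totals. ZBTB46, a factor that marks classical dendritic cells, was at 11.0 and 13.2 CPM in input and 48.8 and 46.0 CPM in RIP (CPM, counts scaled to TMM-adjusted library size). Both RIP libraries lay far above both input libraries, and the level rose 3.92-fold (log2 change 1.97, SE 0.102, adjusted p = 7.23e-11 by edgeR). ZBTB42, a repressor known from the muscle side of the neuromuscular junction, was at 4.42 and 4.93 CPM in input and 14.0 and 15.8 CPM in RIP, 3.18-fold higher (log2 fold change 1.67, SE 0.142). ZBTB22 was at 17.3 and 16.3 CPM in input and 46.7 and 40.9 CPM in RIP, 2.61-fold higher (log2 fold change 1.38, SE 0.0969). For each of these genes the gap between the groups was wider than the spread within them. ZBTB45, linked to glial differentiation, went from 9.14 and 10.8 CPM to 22.6 and 26.5 CPM, 2.47-fold higher (log2 fold change 1.30, SE 0.12). Among the fold changes of all tested genes, ZBTB46 stood at percentile 96.8 and ZBTB42 at percentile 94.0.

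In the RefSeq annotation the 3′ end of ZBTB46 overlaps SLC2A4RG on the opposite strand. Libraries were directional, but the strand setting of the authors' counting is not given in the sources used here, so fragments of the pair cannot be told apart with certainty. On the TMM scale SLC2A4RG was 4.27-fold higher in RIP (23.8 ± 2.13 against 102 ± 2.19 CPM, SD, n = 2 each), close to the rise of ZBTB46. After length correction the log2 fold change was 1.88 for SLC2A4RG and 2.65 for ZBTB46. Of the 42 members 21 overlap another annotated gene. ZBTB37 overlaps GAS5, a host gene of small nucleolar RNAs, on the opposite strand. That pair moved in opposite ways under TMM factors and under library totals: on the TMM scale GAS5 was 2.37-fold higher in RIP (138 ± 4.17 against 327 ± 1.74 CPM) and ZBTB37 3.69-fold lower. After length correction GAS5 stood at -0.06 (adjusted p = 0.376). ZBTB1 and ZBTB25 overlap each other on opposite strands, and both were lower. The part of such overlaps in the values was not tested.

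The largest falls were those of ZBTB41, ZBTB37, ZBTB44, ZBTB34, ZBTB38 and ZBTB43, and each was also called lower under library totals and when length was corrected for, as given further on. ZBTB41 went from 43.5 and 40.8 CPM in input to 8.28 and 8.83 CPM in RIP, 4.93-fold lower (log2 fold change -2.30, SE 0.102, edgeR adjusted p = 1.29e-11). ZBTB37 went from 16.3 and 12.6 CPM to 3.97 and 3.87 CPM (log2 fold change -1.88, SE 0.163). Its 2 input libraries lay further apart than the RIP libraries, and both lay above them. ZBTB44 went from 109 and 109 CPM to 29.7 and 35.4 CPM (log2 fold change -1.74, SE 0.0861). ZBTB34 went from 45.2 and 42.1 CPM to 14.5 and 13.4 CPM (log2 fold change -1.65, SE 0.0952), and ZBTB43 from 34.0 and 29.8 CPM to 10.1 and 11.3 CPM (log2 fold change -1.58, SE 0.109). In none of these genes did a RIP library reach an input library. ZBTB18, a repressor needed for the development of cortical neurons, went from 88.2 and 93.2 CPM to 31.6 and 33.8 CPM, 2.77-fold lower (log2 fold change -1.47, SE 0.079).

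The remaining members moved over a narrower range. Lower in RIP were ZBTB40 (log2 fold change -1.45), ZBTB21 (-1.43), ZBTB26 (-1.31), ZBTB7C (-1.27), ZBTB8A (-1.20), ZBTB39 (-1.18), ZBTB6 (-0.67) and ZBTB8B (-0.65). Their RIP and input libraries did not overlap. ZBTB9 (log2 fold change 0.40) and ZBTB12 (0.36) were higher on the TMM scale and lower with library totals (-0.33 and -0.37). The call of ZBTB9 ended when RIP replicate 2 was left out (adjusted p = 0.0634), and that of ZBTB12 when input replicate 2 was (0.0504). ZBTB3 was at 10.7 and 9.81 CPM in input and 10.5 and 11.4 CPM in RIP, with a log2 fold change of 0.10 (adjusted p = 0.5). With library totals it was called lower, at -0.63. ZBTB32, which restrains lymphocyte activation, was at 0.723 and 1.04 CPM in input and 0.552 and 0.893 CPM in RIP (log2 fold change -0.28, SE 0.408, adjusted p = 0.544). The libraries of the 2 groups interleaved for both genes. With library totals ZBTB32 was called lower, at -1.0.

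Per length, the members of highest level were not those with the largest change. FPKM, which divides by transcript length and so allows levels of different genes to be compared, ran in input from 0.463 ± 0.124 for ZBTB32 through a median of 5.61 over the members to 32.1 ± 2.21 for ZBTB8OS (SD, n = 2), where the median of all tested genes was 7.09. After ZBTB8OS came ZBTB18 at 22.5 ± 1.16 and ZBTB33 at 17.7 ± 0.169 FPKM, with ZBTB10 at 17.0 ± 0.582 below them. ZBTB33 and ZBTB10 differed by little more than the SD of ZBTB10, and at the low end ZBTB32 and ZBTB20 did not differ beyond their spread. In RIP the median of the members was 3.63 FPKM, against 6.14 over all tested genes. ZBTB8OS stood first again at 58.7 ± 1.95 FPKM, followed by ZBTB22 at 16.7 ± 1.57 and ZBTB11 at 16.1 ± 0.312, which did not differ beyond their spread. ZBTB7C was last at 0.212 ± 0.0188 FPKM. The input level in FPKM went with the log2 fold change only weakly across the 42 members (Spearman rho = -0.15, Pearson r = -0.12, genes of the same 4 libraries).

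Of the 10 members with a known role in blood and lymphocytes 5 rose and 4 fell, but under library totals 1 rose and 8 fell. Of all tested genes 38.0% rose and 39.7% fell, or 17.0% and 65.5% under library totals, and nothing particular to this group is read from its counts. ZBTB46, described above, had the largest rise. ZBTB16, or PLZF, a factor of innate-like lymphocytes, was at 3.44 and 2.35 CPM in input and 4.97 and 4.66 CPM in RIP (log2 fold change 0.73, SE 0.213). Its RIP libraries lay above its input libraries, but it stood at -0.0038 with library totals, and its call ended without the second input library (adjusted p = 0.0694). ZBTB7A, which silences fetal globin genes, went from 13.8 and 13.8 CPM to 19.6 and 16.3 CPM (log2 fold change 0.38, and -0.35 with library totals). Without the first RIP library its call was lost (adjusted p = 0.127). ZBTB7B, or ThPOK, which fixes the helper T cell fate, went from 21.4 and 20.1 CPM to 25.4 and 24.3 CPM (log2 fold change 0.26, and -0.47 with library totals). ZBTB17, or MIZ-1, a partner of MYC, went from 14.2 and 15.0 CPM to 17.2 and 17.7 CPM (log2 fold change 0.26, and -0.47 with library totals). Both rises were small, and neither passed with DESeq2 (adjusted p = 0.0663 for ZBTB7B and 0.12 for ZBTB17). ZBTB7B lost its call without the second input or the first RIP library, ZBTB17 without the first input library or either RIP library, with adjusted p-values up to 0.104 and 0.139.

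Of the rest of that group ZBTB32, above, had no call on the TMM scale and the others fell. ZBTB25 went from 9.90 and 7.82 CPM in input to 3.26 and 4.66 CPM in RIP (log2 fold change -1.16, SE 0.19), with its RIP libraries apart from each other but both below input. ZBTB24, mutated in a syndrome of immunodeficiency and unstable centromeres, went from 46.8 and 40.3 CPM to 22.7 and 24.0 CPM (log2 fold change -0.90, SE 0.0955). ZBTB1, needed for lymphocyte development, went from 32.1 and 31.0 CPM to 21.5 and 18.8 CPM (log2 fold change -0.65, SE 0.0959). All of these lay outside the spread of the libraries. ZBTB20, known from the hippocampus and the liver, was at 2.0 and 1.63 CPM in input and 1.05 and 0.793 CPM in RIP (log2 fold change -0.97, SE 0.318). Its call was lost with DESeq2 (adjusted p = 0.0899), without the first input library (0.0881) and without the second RIP library (0.107).

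All 3 members that bind methylated CpG fell, beside 39.7% of all tested genes. They were long, at 1.87, 2.13 and 3.05 times the median tested gene for ZBTB33, ZBTB4 and ZBTB38. At 1 to 2 times that length, the class of ZBTB33, 54.1% of tested genes fell, and at over 2 times 82.6% did. After the length correction given below, 2 of the 3 were called lower, and ZBTB4 stood at 0.19 with no call. ZBTB33, or Kaiso, the founder of this group, went from 97.0 and 96.1 CPM in input to 49.1 and 52.9 CPM in RIP (log2 fold change -0.92, SE 0.0742, edgeR adjusted p = 1.31e-08). ZBTB38 went from 24.3 and 22.1 CPM to 7.38 and 7.83 CPM (log2 fold change -1.61, SE 0.115). ZBTB4 went from 30.8 and 23.6 CPM to 17.6 and 18.0 CPM (log2 fold change -0.61, SE 0.119), with its input libraries further apart than those of Kaiso. Of the 5 members known to act on CDKN1A, the gene of the cell cycle inhibitor p21, 4 were lower and ZBTB17 was higher. With library totals all 5 were lower, beside 65.5% of all tested genes. After length correction 3 were lower and ZBTB17 higher, beside 31.5% and 38.5% of all tested genes, and ZBTB4 had no call. The corrected call of ZBTB17 (0.23) ended without input replicate 1 (0.18), RIP replicate 1 (0.26) or RIP replicate 2 (0.23). ZBTB5, a repressor of CDKN1A, went from 40.8 and 36.9 CPM to 20.9 and 20.8 CPM (log2 fold change -0.90). ZBTB2, also a repressor, went from 30.4 and 32.7 CPM to 23.2 and 23.1 CPM (-0.45). ZBTB49, an activator of it, went from 5.14 and 4.84 CPM to 3.26 and 2.98 CPM (-0.68). In these genes too the groups were apart in every library.

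The telomere binders split on the TMM scale. ZBTB48, or TZAP, which trims long telomeres, went from 22.9 and 20.6 CPM in input to 31.8 and 27.9 CPM in RIP (log2 fold change 0.45, SE 0.0997, and -0.28 with library totals), whereas ZBTB10, which binds variant telomere repeats, went from 111 and 104 CPM to 69.1 and 75.1 CPM (-0.58, SE 0.0748). Both were lower with library totals. Of the 5 neural and developmental repressors ZBTB18, ZBTB20 and ZBTB14 were lower, and ZBTB45 and ZBTB16 higher, the last of these with no call under library totals. ZBTB14 went from 13.7 and 14.3 CPM to 7.88 and 9.32 CPM (log2 fold change -0.70, SE 0.128). Of the 21 members in no such group 6 rose and 14 fell, and by library totals 2 rose and 18 fell. Over all tested genes 38.0% rose and 39.7% fell, or 17.0% and 65.5% by library totals. ZBTB11, needed for mitochondrial function, was at 61.6 and 66.0 CPM in input and 86.0 and 83.8 CPM in RIP (log2 fold change 0.41, SE 0.0734, and -0.32 with library totals).

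**Figure D2:**
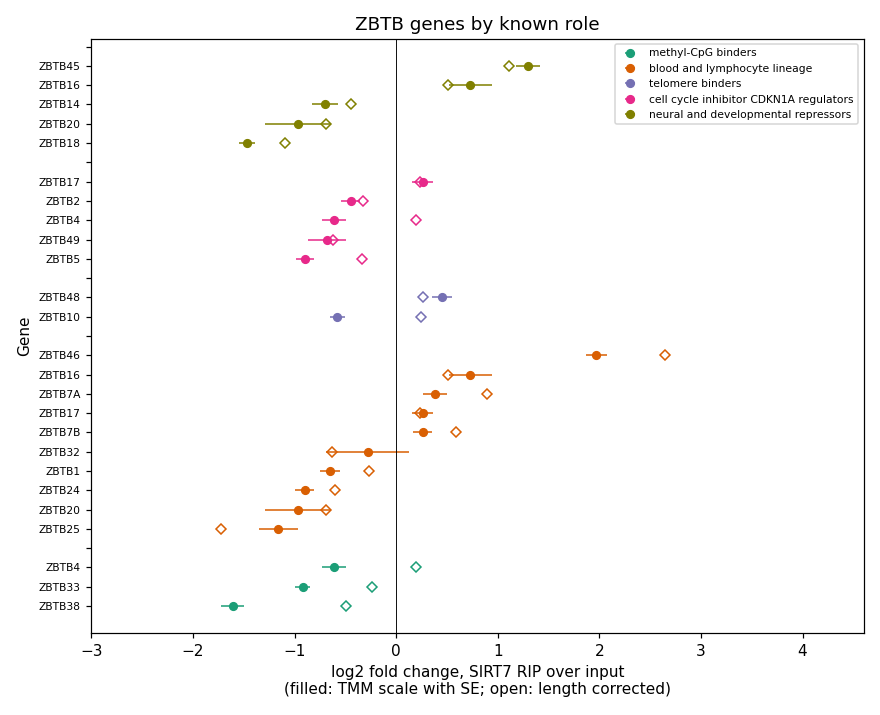
Log2 fold change of RIP over input for the members with a known role, coloured by role, as filled points with their SE on the TMM scale and open diamonds after length correction; ZBTB4, ZBTB16, ZBTB17 and ZBTB20 belong to more than 1 role and appear in each. All 3 methyl-CpG binders lie below 0 on the TMM scale, ZBTB4 at 0.19 after length correction, and ZBTB46 lies furthest to the right on both.

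Effective length stood beside the fold change for most members. It was taken from the table as scaled fragments over FPKM and is given in multiples of the median tested gene. The members were long, with a median of 1.37, and 30 of the 42 exceeded the median gene. Members called lower had a median length of 1.66 (range 0.512 to 3.40), and members called higher one of 0.934 (0.191 to 1.87). Across the 42 members the log2 fold change went down with log2 length (Spearman rho = -0.49, Pearson r = -0.44), as it did across all 14555 tested genes (-0.60 and -0.55). These are descriptions across genes that share 4 libraries. Without ZBTB8OS and ZBTB25, the 2 members farthest in log2 length from the median of the members, they were -0.50 and -0.46.

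All 11 members more than 2 times as long as the median gene were lower, where 82.6% of tested genes of that length were lower and 5.54% higher. Among the 19 members of 1 to 2 times the median length 13 were lower and 5 higher (68.4% and 26.3%), beside 54.1% and 20.3% of tested genes. Among the 12 members up to the median length 3 were lower and 8 higher (25.0% and 66.7%), beside 17.0% and 60.0%. The median log2 fold change was -1.45, -0.65 and 0.38 in the 3 length classes for the members and -1.04, -0.37 and 0.57 for all tested genes. Within each length class the median of the members lay closer to that of the other genes than it did over all lengths. Longer than the median gene and still higher were ZBTB46, ZBTB42, ZBTB11, ZBTB7A and ZBTB7B, of which the last 3 were lower with library totals. Shorter and still lower were ZBTB37, ZBTB26 and ZBTB25.

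**Figure D3:**
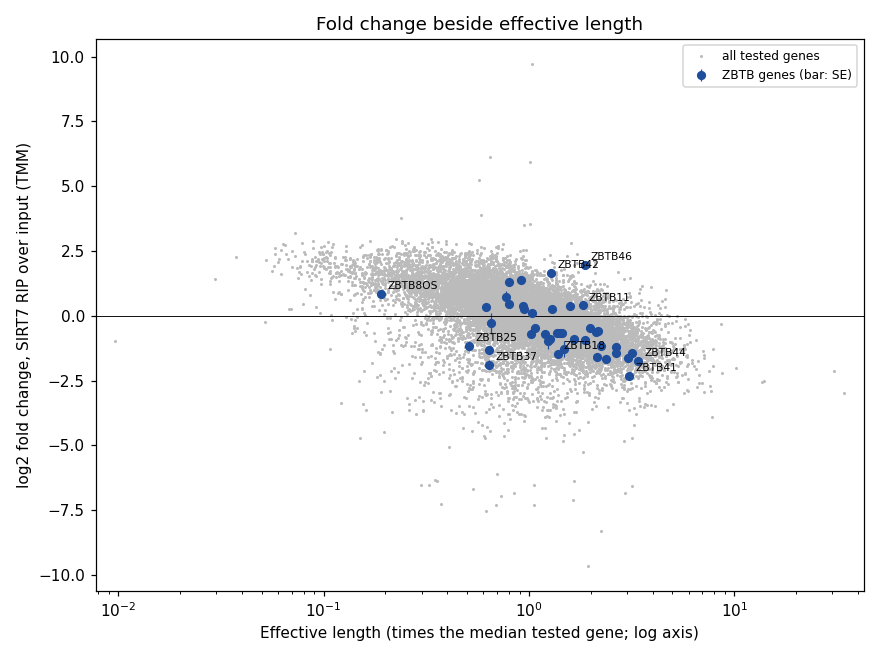
Log2 fold change of RIP over input (TMM scale) against effective length in multiples of the median tested gene (log axis), for all tested genes in grey and the ZBTB genes in blue with their SE. Fold changes go down with length (Spearman rho = -0.60 over all genes, -0.49 over the ZBTB genes), with ZBTB46 and ZBTB42 at the upper edge of the cloud and ZBTB37 and ZBTB25 toward its lower left; with library totals the ZBTB genes above 0 number 5, ZBTB8OS among them without a call.

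Taking the length trend out of each library with offsets left 21 members lower and 13 higher, with a median of -0.28, where 31.5% of tested genes were lower and 38.5% higher and their median was 0.05. Of the members 31 kept the direction of their call, 20 lower and 11 higher. The call of 3 turned. ZBTB8OS, the shortest member at 0.191 of the median length, was at 17.2 and 18.6 CPM in input and 33.0 and 31.5 CPM in RIP, 1.80-fold higher (log2 fold change 0.85, SE 0.0933), and at -0.37 after correction (adjusted p = 0.00105). ZBTB10 (length 2.18) turned from -0.58 to 0.24 (adjusted p = 0.00309), a call that ended without RIP replicate 2 (0.20). ZBTB47 (length 1.98), at 30.0 and 25.9 CPM in input and 21.9 and 18.5 CPM in RIP, turned from -0.47 to 0.26 (adjusted p = 0.0251). Its corrected call ended without input replicate 2 (0.20) or RIP replicate 1 (0.12), so the turn of ZBTB47 rests on these libraries. The offsets use no property of a gene other than its length.

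The call ended after correction for ZBTB12 (-0.04), ZBTB4 (0.19), ZBTB8B (-0.24), ZBTB6 (-0.24), ZBTB20 (-0.69) and ZBTB8A (-0.20), with adjusted p-values from 0.0526 for ZBTB6 to 0.744 for ZBTB12. Some members moved further from 0. ZBTB46, 1.87 times as long as the median gene, rose to 2.65 (adjusted p = 5.59e-14), percentile 99.9 of all corrected fold changes, and ZBTB42 (length 1.28) to 1.98. The part of the overlap with SLC2A4RG in the corrected value of ZBTB46 was not tested. ZBTB11 (length 1.83) stood at 1.07 and ZBTB7A (length 1.58) at 0.89. On the lower side ZBTB37 (length 0.639) moved to -2.26, ZBTB25 (0.512) to -1.72 and ZBTB26 (0.636) to -1.69. ZBTB37, ZBTB24 and ZBTB20 had deposited lengths that differed by over 5% between libraries, so their corrected values are less certain. The methyl-CpG binders ZBTB33 and ZBTB38 stayed lower at -0.24 and -0.49, and both telomere binders were then higher, ZBTB48 at 0.26. The corrected call of ZBTB33 ended without RIP replicate 1 (-0.20), and that of ZBTB48 without input replicate 2 (0.19) or RIP replicate 1 (0.18). The largest corrected fall among the long members was that of ZBTB41, 3.08 times the median length, at -1.18.

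**Figure D4:**
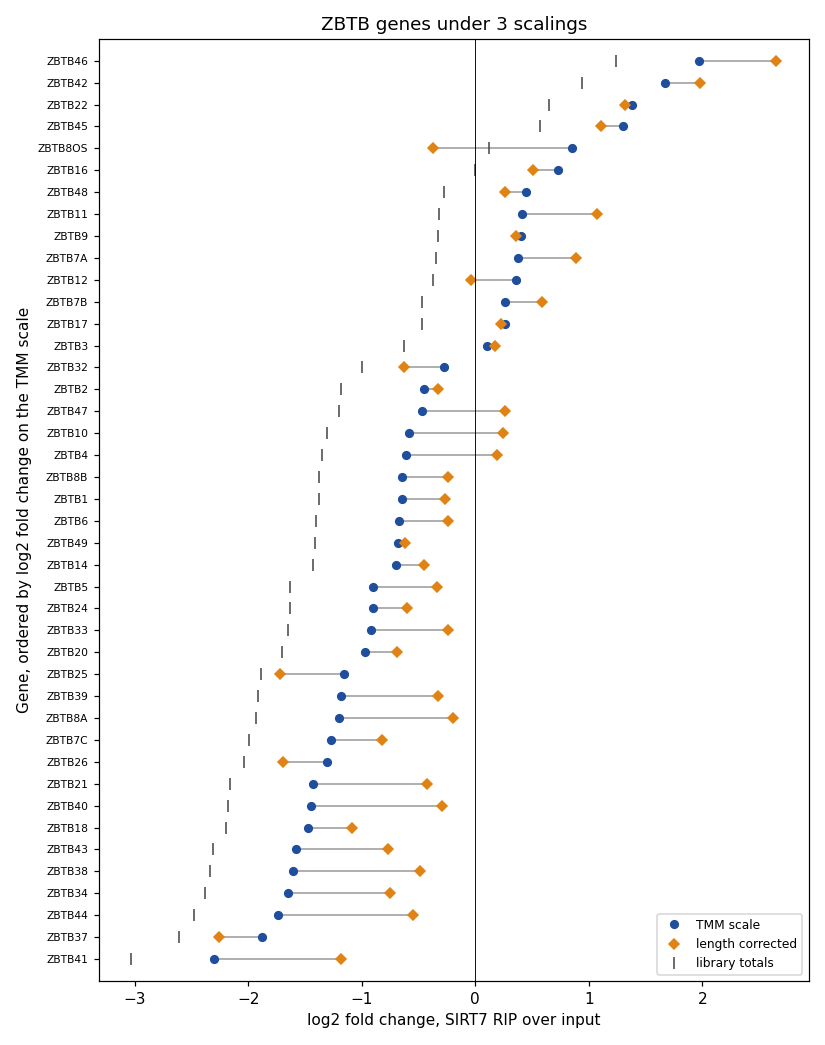
Log2 fold change of each ZBTB gene under 3 scalings: TMM factors (blue circles), TMM factors with the length trend taken out (orange diamonds, joined to the circles) and library totals (ticks), ordered by the TMM value. ZBTB46, ZBTB42, ZBTB22 and ZBTB45 lie above 0 on each scale. ZBTB8OS, ZBTB10 and ZBTB47 change sides of 0 with a call on both the TMM and the length-corrected scale.

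Genes around the family give the setting. Over all tested genes 39.7% fell and 38.0% rose, 65.5% and 17.0% under library totals, and 31.5% and 38.5% with length corrected. Of the 8 BTB zinc finger genes under other names 5 fell and 2 rose (median -0.47), which became 6 and 0 under library totals and 2 and 5 with length corrected. HIC1, a tumour suppressor gene, was 2.12-fold higher and PATZ1 1.55-fold higher (0.35 and -0.10 on the log2 scale with library totals, neither called). On the log2 scale ZNF131 fell by 1.26 and BCL6, the germinal centre repressor, by 0.93. Of 444 tested ZNF genes, most of which code for C2H2 fingers without a BTB domain, 286 fell and 75 rose (64.4% and 16.9%, median -0.79), which became 376 and 36 under library totals (median -1.52) and 258 and 87 with length corrected (median -0.46). ZNF524 and ZNF593 rose 6.30-fold and 5.04-fold, and ZNF117 and ZNF37BP fell by 2.63 and 2.60 on the log2 scale. Of the 42 ZBTB genes 64.3% fell and 31.0% rose, and with length corrected 21 fell and 13 rose (median -0.28).

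Other BTB genes, whose proteins mostly serve cullin 3 ubiquitin ligases, showed 21 of 35 lower and 5 higher for the BTB-Kelch genes (median -0.60, with 30 and 0 by library totals and 14 and 9, median -0.17, after length correction) and 17 of 35 lower and 9 higher for BTBD, KCTD and related genes (median -0.34, with 29 and 4 by library totals and 13 and 13, median 0.01, after length correction). KLHL25 and KLHL22 were 1.53-fold and 1.47-fold higher (-0.12 and -0.18 with library totals), and KLHL15 and KLHL28 fell by 1.56 and 1.41. BTBD6 rose 4.64-fold and KCTD17 3.26-fold, while SPOPL and BTBD7 fell by 1.67 and 1.63. The list for corepressor complexes and cullin 3, of which BTB domains are known to bind several members, held 16 genes. Of these 4 rose and 9 fell (median -0.55), or 2 and 14 under library totals. CTBP1 rose 2.83-fold and HDAC3 1.91-fold, whereas TBL1XR1 and NCOR1, both of the NCoR complex that also holds HDAC3, fell by 2.04 and 1.62. After length correction TBL1XR1 was at -1.14, NCOR1 at -0.54, CTBP1 at 1.36 and HDAC3 at 0.57, and the corepressor list had 7 higher and 6 lower. Over all tested genes 39.7% were lower and 38.0% higher, 65.5% and 17.0% by library totals, and 31.5% and 38.5% after length correction. Median lengths were 1.49 (BTB-Kelch), 1.18 (BTBD, KCTD and related) and 2.03 (corepressor list) times the median tested gene. At 1 to 2 times that length 54.1% of tested genes were lower, and 82.6% above it.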

How the data were processed

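The submitters' processing notes name Cuffdiff 2.2.1, TopHat2 2.0.13, Bowtie2 2.2.6, cutadapt 1.5 and the hg19 build. For annotation and strand setting, nothing is given in the sources used here. The deposited expected counts are estimated fragments per gene before scaling (97.94% whole; all ZBTB values whole), and were rounded. The deposited scaled fragments, a signal, are the same fragments divided by 1 factor per library. The authors' FPKM column divides those scaled fragments by transcript length and by a size common to the libraries. For most members the ratio of scaled fragments to FPKM was the same in all 4 libraries. Table replicates 0 and 1 were taken as replicates 1 and 2 of the labels.

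Genes past filterByExpr (minimum count 10, minimum total 15) went into edgeR 4.0.16 (glmQLFit and glmQLFTest under R 4.3.3, with group as the only term). TMM gave factors of 1.2983 and 1.2781 for the input libraries, 0.7767 and 0.7759 for RIP. SE is the log2 fold change over the root of F. The length correction added as offsets each library's loess trend (span 0.5) on log2 effective length. The trend was that of the deviation of log2 CPM from the gene's mean over the libraries. The steps were tested on simulated counts, with and without an added length trend, in which as many genes were raised as lowered by known folds. Such balanced counts cannot test the choice between TMM factors and library totals. Replicates differed by more than sampling noise (6.17 and 3.40 chi-square per gene over 14429 genes in input and 13852 in RIP), and all 4 libraries were kept. Depth limits counting error alone, as fragments were not counted by unique molecule. DESeq2 1.42.0 and limma 3.58.1 served as alternatives.

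Values per library are given for the 6 largest rises and falls, the 3 members of highest FPKM in each group, turned calls and members with a fixed role; from each context list, the 2 largest called rises and falls with a mean of at least 50 counts are named. The members and lists were chosen with earlier results of these data known. Lengths of proteins and finger counts were not analysed here.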

Additional observations from a re-analysis of the deposited data

How the results depend on the processing

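Over the alternatives run, the members kept 10 to 13 higher and 25 to 27 lower calls, except for library totals and length offsets, given in the text (with totals 4 higher, median -1.39; with offsets median -0.28). The median was -0.45 on log2(FPKM + 1) and ran from -0.72 to -0.59 when 1 library was left out. Members that changed sign with library totals were ZBTB11 (-0.32), ZBTB12 (-0.37), ZBTB16 (-0.0038), ZBTB17 (-0.47), ZBTB3 (-0.63), ZBTB48 (-0.28), ZBTB7A (-0.35), ZBTB7B (-0.47) and ZBTB9 (-0.33). With length offsets ZBTB10 (0.24), ZBTB12 (-0.04), ZBTB4 (0.19), ZBTB47 (0.26) and ZBTB8OS (-0.37) did, of which ZBTB12 and ZBTB4 then had no call. Why single members changed sign was not tested. With the replicate number as a block 13 members were higher and 27 lower, as without it, and the block changed no call of a member. Same-numbered libraries hardly deviated together (correlation 0.041), which with 2 libraries per group cannot settle whether they were paired. As the labels do not say what the number marks, it is not taken as a pairing. After length correction the block gave 13 higher and 23 lower. A minimum of 50 counts in 2 libraries ended the call of ZBTB17 (0.21, adjusted p = 0.0692) and left 3 members untested. After length correction, leaving out 1 library gave 9 to 13 higher and 19 to 21 lower calls, and 11 members lost a call in at least 1 of these fits (ZBTB1, ZBTB7C, ZBTB9, ZBTB10, ZBTB16, ZBTB17, ZBTB33, ZBTB39, ZBTB40, ZBTB47 and ZBTB48). Precision was limited by 2 libraries per group and, for ZBTB7C, ZBTB20 and ZBTB32, by counts of 11 to 54.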
